A study of Mus musculus with 6 samples.

Results

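The mir-871 and mir-880 cluster is a group of miRNA genes on the mouse X chromosome. The members described here were mir-871, mir-880, mir-881, mir-883a, mir-878, mir-470, mir-463, mir-741, mir-743a and mir-465a. They were taken by exact entry name, and all 10 were found among the 1006 precursor entries of the deposited table. They had been chosen by their normalized expression values, present in myoblast vesicles and near 0 in bone cells, so that contrast is given as a description without a test. The comparison of vesicles with and without shear stress did not choose them, except that mir-871 is one of the miRNAs the study itself selected for a higher level under shear stress.

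Small RNA was sequenced from 6 libraries in 4 conditions. Myo-EVs (2 libraries) are extracellular vesicles pelleted by ultracentrifugation from the medium of C2C12 cells, a mouse myoblast line. FFSS-Myo-EVs (2 libraries) came from C2C12 cells that received fluid flow shear stress (FFSS) on an orbital shaker turning at 250 rpm over 48 hr, for which a stress of 6 dyn/cm2 was calculated. OB (1 library) are primary mouse osteoblasts and BM (1 library) are primary mouse bone marrow cells, neither of them exposed to FFSS. For the EV libraries, values without FFSS are those of the first and second Myo-EV library, and values with FFSS those of the first and second FFSS-Myo-EV library. The labels give all 6 libraries the same mixed background, 81.25% C57BL/6J with 18.75% 129/SvJ, C2C12 vesicles included, which the methods give for mice only. The labels also give an age of 8 to 10 weeks for OB and BM. The methods instead describe osteoblasts from the skulls of several male mice aged 3 to 5 days. They describe marrow from the tibiae of a single 8-week-old male. The growth text of the labels, shared by the 6 libraries, speaks of vitamin D or dexamethasone and not of FFSS. A single cell line stands behind all 4 EV libraries, the marrow is a mixture of cell types, and no source says whether EV libraries of one condition came from separate cultures, so p-values measure the spread between these libraries only.

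The total count ranged from 2414132 to 3029524 in the EV libraries and reached 6092460 in BM. The labels were checked on known cell type miRNAs. The myogenic mir-206 had a normalized expression value of 1968.5 to 2610.0 in the 4 EV libraries, against 91.7 in OB and 7.9 in BM, while the muscle miRNA mir-1a-1 was at 0 in the 4 EV libraries and mir-1a-2 at no more than 6.0. The 6 muscle entries summed to 2052.9 and 2446.9 without FFSS and to 2641.9 and 2625.9 with FFSS. Of these entries only mir-206 rose, and it made up most of the sum. The rarer mir-133b went from 45.2 and 35.9 without FFSS to 13.9 and 12.2 with FFSS. Both mir-133a entries and mir-1a-2 were also lower with FFSS, such as mir-133a-1 at 19.1 and 19.2 and then at 10.0 and 4.4. The blood cell miRNA mir-223 was at 9710.3 in BM and at no more than 7.0 in any EV library. The 5 blood cell entries summed to no more than 15 without FFSS and to 50.9 and 43.2 with FFSS, with mir-451a at 3.0 and 4.8 and then at 25.9 and 17.7. The part of these shifts in the results below was not tested. The 6 mesenchymal entries summed to 536435.8 in OB and 22199.3 in BM. In the EVs they summed to 335111.9 and 437712.5 without FFSS and to 385994.2 and 401105.3 with FFSS. Among them, mir-199a, mir-199b and mir-214 were lower in each EV library than in OB, while mir-143 and mir-145a were higher. The list thus set OB apart from BM but not clearly from the EVs.

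The cluster is found in rodents and has fast-evolving relatives in other mammals. It lies in the fragile X region between Slitrk2 and Fmr1 and is known from the testis, where its miRNAs are made in the cells of the seminiferous tubule during sperm formation. Each gene gives a short hairpin RNA that is cut into 2 mature forms, 5p and 3p, and bases 2 to 8 of a mature form, the seed, set most of its target choice.

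In RefSeq on GRCm38.p6, all 10 hairpins had a match and lay on the minus strand of chromosome X between 66776757 and 66839125, a stretch of 62369 bases. In the GENCODE M21 annotation of the same assembly, no gene other than the miRNA genes overlapped any of the hairpins, so none was exonic or intronic in a host gene. The nearest protein coding genes were Slitrk2, which ended 115363 bases before the first hairpin, and Gm1140, which started 843774 bases after the last. In chromosomal order the members were mir-743a (start 66776757), mir-883a (66780758), mir-741 (66796805), mir-463 (66799223), mir-880 (66800530), mir-878 (66801508), mir-881 (66801944), mir-871 (66810428), mir-470 (66813951) and mir-465a (66839052). Among them stood 9 more entries of the same cluster, which made 19 hairpins with gaps of 320 to 9056 bases.

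The mature sequences of the members on which the results below turn are given from RefSeq, 5′ to 3′, with the seed in capitals. The table of counts does not tell the 5p and 3p forms apart, so both forms are shown for the members called higher or lower and for mir-743a, which shares a seed with mir-871. Of mir-880 and mir-465a the 3p form is shown, for its end and for its paralogs.
miR-871-5p: uAUUCAGAuuagugccagucaug
miR-871-3p: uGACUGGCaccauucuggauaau
miR-743a-5p: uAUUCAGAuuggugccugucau
miR-743a-3p: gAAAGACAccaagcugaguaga
miR-881-5p: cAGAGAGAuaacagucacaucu
miR-881-3p: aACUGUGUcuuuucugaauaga
miR-741-5p: uACGUAGAuugguaccuaucaug
miR-741-3p: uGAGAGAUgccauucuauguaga
miR-470-5p: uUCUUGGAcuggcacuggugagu
miR-470-3p: aACCAGUAccuuucugagaaga
miR-883a-5p: uGCUGAGAgaaguagcaguuac
miR-883a-3p: uAACUGCAacagcucucaguau
miR-880-3p: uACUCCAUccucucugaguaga
miR-465a-3p: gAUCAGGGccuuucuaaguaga

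The 20 mature forms of the members held 19 different seeds, and none of the 19 was found in a mouse mature miRNA outside the 21 entries of the cluster in this table. The seed AUUCAGA was the only one that 2 members shared, miR-871-5p and miR-743a-5p. Over the 22 bases that both have, these 2 forms differed at 2 positions counted from the 5′ end of miR-871-5p, A11G and A17U. The number of mismatches allowed in the authors' matching is not given in the sources used here, and whether their reads were split between the 2 entries cannot be told from the table. The form miR-465a-3p was identical to miR-465b-3p and miR-465c-3p, so reads of it do not tell these entries apart, and the mir-465a hairpin shared an 18-base stretch with 5 other entries, all of the mir-465 group. None of the other 9 members shared such a stretch with any other entry that had a sequence.

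The ends of the mature forms recurred as well, a feature looked for only after the sequences had been read. Of the 10 member 3p forms, 6 ended in UAGA, against 5 of 1641 mouse mature forms outside the cluster (0.305%). UA started 9 of the 20 (45.0%), against 131 of the same 1641 (7.98%), and 7 of the 9 were among the 10 member 5p forms. The 6 forms with the UAGA end were those of mir-465a, mir-741, mir-743a, mir-878, mir-880 and mir-881, and mir-871 was not among them. The members' mature forms were 21 to 23 bases long, and levels are compared between members as reads per entry. Whether different sequences were captured equally well in the libraries was not tested.

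The members were abundant in vesicles and close to absent from bone cells. The series holds no library of C2C12 cells. Vesicle against cell thus cannot be told apart from myoblast against bone cell. Their counts summed to 21258 and 18069 in the Myo-EV libraries and to 19594 and 16876 in the FFSS-Myo-EV libraries, against 6 in BM and 0 in OB. As a share of all counts this was 0.740% (95% Clopper-Pearson interval 0.73 to 0.75) and 0.748% (0.738 to 0.759) without FFSS. In FFSS-Myo-EVs it was 0.647% (0.638 to 0.656) and 0.635% (0.626 to 0.645). The share in BM was 9.85e-05% (3.61e-05 to 0.000214). In OB it was 0 of 5181296 counts, for which the same kind of interval reaches up to 7.12e-05%. Reads copied by PCR and lacking molecular identifiers are not separate molecules, so intervals and limits here speak of counting error alone. Fewer cells or vesicles with a miRNA and less of it in each cannot be told apart in bulk libraries.

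**Figure D1:**
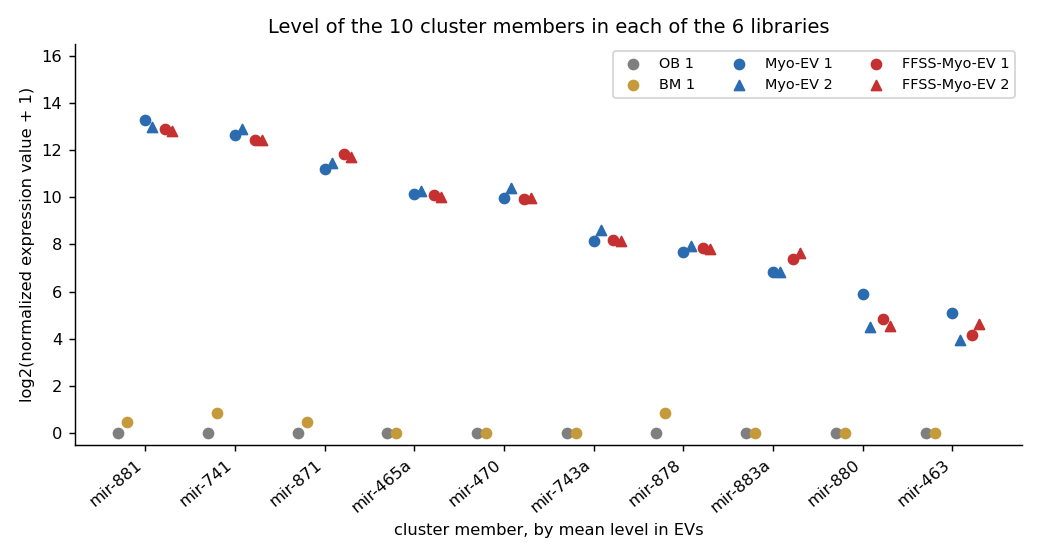
Level of each member in each library, as log2 of the normalized expression value plus 1, with members ordered by their mean in the 4 EV libraries. Circles are first and triangles second libraries of a condition. The 4 EV points of mir-881 stand between 7130.2 and 9859.6 before the log, and every OB point is at 0.

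The most abundant member was mir-881, with normalized expression values of 9859.6 and 7996.9 without FFSS, 7598.0 and 7130.2 with FFSS, 0.4 in BM (1 count) and 0 in OB. The next was mir-741, at 6323.1 and 7505.8 without FFSS, 5497.0 and 5460.0 with FFSS, 0.8 in BM (2 counts) and 0 in OB. Both were lower in each FFSS-Myo-EV library than in either Myo-EV library, and by their mean in the EVs they ranked 39 and 45 of the 1006 entries.

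The third was mir-871, at 2344.9 and 2799.0 without FFSS, 3634.1 and 3332.5 with FFSS, 0.4 in BM (1 count) and 0 in OB. It ranked 79 and was higher in each FFSS-Myo-EV library than in either Myo-EV library. The values of mir-465a were 1121.3 and 1222.8 without FFSS and 1076.9 and 1017.8 with FFSS, with 0 counts in BM and OB. Those of mir-470, one of the miRNAs known to act on pluripotency factors such as Nanog in stem cells, were 1001.8 and 1341.4 without FFSS and 983.3 and 996.8 with FFSS, also with 0 counts in both cells. These 2 had nearly the same level, with means over the EV libraries of 1109.7 and 1080.8, and both were lower in each FFSS-Myo-EV library, mir-470 by a small gap.

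A middle group of 3 followed. The values of mir-743a, known as a regulator of mitochondrial malate dehydrogenase, were 282.1 and 388.0 without FFSS and 287.9 and 284.6 with FFSS. Those of mir-878 were 203.8 and 239.5 without FFSS and 232.1 and 223.7 with FFSS, and those of mir-883a were 111.4 in both Myo-EV libraries (111 and 93 counts) and 165.4 and 199.4 with FFSS. The groups overlapped for mir-743a and mir-878 and stood apart for mir-883a, which was higher under FFSS. None of the 3 had a count in OB, and mir-878 alone had any in BM (2 counts).

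The 2 rarest members were mir-880, at 58.2 and 21.6 without FFSS and 27.9 and 22.2 with FFSS, and mir-463, at 33.1 and 14.4 without FFSS and 16.9 and 23.3 with FFSS. In both, the first Myo-EV library was the highest and the second the lowest of the 4, so that the Myo-EV pair differed by 2.69 times for mir-880 and 2.30 times for mir-463. Neighbours in the order of levels whose ranges over the 4 EV libraries overlapped were mir-881 with mir-741, mir-465a with mir-470 and mir-880 with mir-463. The other neighbours stood apart, mir-878 (lowest 203.8) and mir-883a (highest 199.4) by the smallest gap.

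Set against OB, where every member had 0 counts, the mean of the Myo-EVs was at least 5389-fold higher for mir-881, at least 4173-fold higher for mir-741 and at least 1552-fold higher for mir-871, all against the level of 3 counts in that library. For the rarest, mir-463, the bound was at least 14.3-fold higher. The level of 3 counts in OB, 1.66, lies below the upper 95% Clopper-Pearson limit for 0 counts, 2.04, so these bounds are not 95% limits. Set against BM, where mir-871 had 1 count, the ratio was 6476 without FFSS (95% counting interval 1162 to 255770) and 8770 with FFSS (1574 to 346400). With 2 counts in BM, mir-741 had a ratio of 8704 (2410 to 71875) without FFSS. These ratios have no replicate error on the side of the cells.

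**Figure D2:**
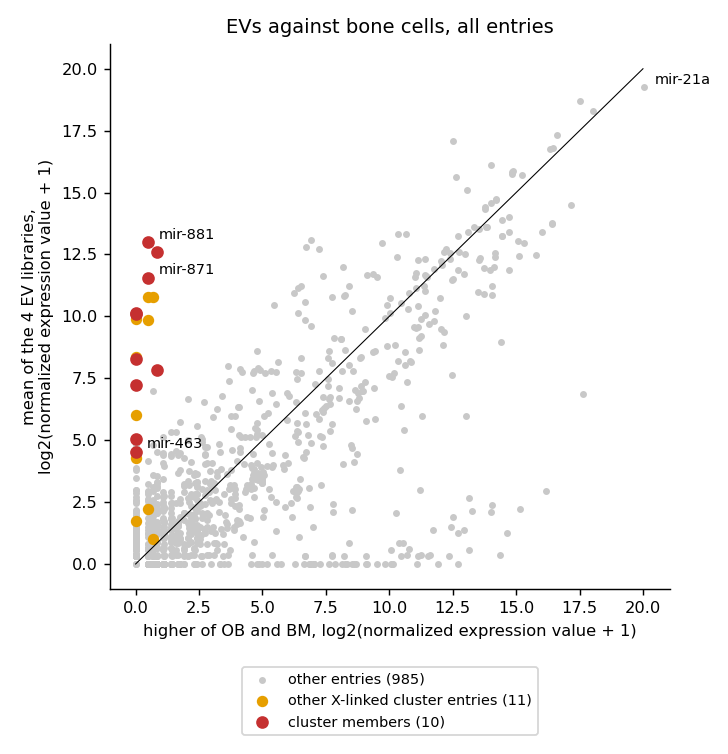
Mean of the 4 EV libraries against the higher of OB and BM for all 1006 entries, both as log2 of the normalized expression value plus 1, with a line where both are equal. The 10 members and the 11 other cluster entries lie at the left edge, at no more than 2 counts in either cell.

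Among the 203 entries with a mean of at least 100 over the EV libraries, 14 (6.90%) had 3 counts or fewer in both OB and BM, which is the contrast that chose the members. Of the 14, 8 were members, 5 were other entries of the cluster and 1, mir-6977, lay outside it with a mean of 127.2. The 5 others were mir-465c-2, mir-465c-1, mir-465b-1, mir-465b-2 and mir-743b, with means from 1742.1 down to 329.8. The entry mir-743b lies 437 bases from mir-743a, and the other 4 share mature forms with mir-465a.

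The cluster was not present as a whole at one level. Of the 11 other entries of the cluster, which had no more than 1 count in either cell, 8 reached the mean of 10 needed for the test in EVs. The 3 that did not were mir-742, mir-201 and mir-547, the last 2 of which lie at least 1148970 bases beyond mir-465a. Their EV means were 2.38, 1.02 and 3.70. The entry mir-742 stands 320 bases from mir-883a, whose mean was 146.9.

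Testis miRNAs from outside the X-linked cluster were also looked up. The abundant one, mir-34c, was at 21091.4 and 26314.2 without FFSS and 16754.1 and 17526.4 with FFSS, but also at 14155.8 in OB and 181.5 in BM. Its partner mir-34b was at 2633.1 in OB and between 2312.2 and 2510.7 in the EV libraries. The 3 entries of the mir-449 group were at or below 20.4 in all 6 libraries. Unlike the members, mir-34b and mir-34c were thus counted in both cells.

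With FFSS, the mates changed in both directions. Changes were tested by quasi-likelihood in edgeR, on counts scaled by TMM, for the 354 entries with a mean of at least 10 over the EV libraries, all 10 members among them, with Benjamini-Hochberg adjustment over the 354. At an adjusted p under 0.05, 2 members were called higher with FFSS and 3 lower, beside 12.1% higher, 18.4% lower and 30.5% in either direction over all tested entries. The members' log2 fold changes ran from -0.83 to 0.58 with a median of -0.35, against a median of -0.02 over all tested entries. The edgeR fit had infinite prior degrees of freedom, so each miRNA's own spread was replaced by a spread pooled over the tested entries. Its p-values and intervals therefore do not measure how a single miRNA varied between libraries. For a single miRNA, permuting 2 libraries against 2 exactly (two-sided) cannot give a p below 0.333.

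The 2 that rose were mir-883a, with a log2 fold change of 0.58 (SE 0.23, adjusted p = 0.0427 in edgeR), and mir-871, with 0.32 (SE 0.13, adjusted p = 0.0413 in edgeR). On the authors' values the mean of mir-883a went from 111.4 ± 0 (SD, n = 2) to 182.4 ± 24.0 (SD, n = 2) and that of mir-871 from 2571.9 ± 321.1 (SD, n = 2) to 3483.3 ± 213.3 (SD, n = 2). The rise of mir-871 is not independent evidence, since the study chose it on these libraries. The 3 that fell were mir-741 by 0.45 on the log2 scale (SE 0.14, adjusted p = 0.00516), mir-881 by 0.41 (SE 0.14, adjusted p = 0.0170) and mir-470 by 0.36 (SE 0.13, adjusted p = 0.0203), all in edgeR. The mean of mir-741 went from 6914.5 ± 836.3 (SD, n = 2) to 5478.5 ± 26.2 (SD, n = 2), and that of mir-881 from 8928.2 ± 1317.1 (SD, n = 2) to 7364.1 ± 330.8 (SD, n = 2). The falls hold only under some scalings. Relative to TMM, the authors' scaling shifted all log2 fold changes up by a median of 0.12, and with it edgeR called 2 members higher and 0 lower, beside 15.3% and 11.0% of all tested entries. At an unadjusted p under 0.05 it had 1 member lower, DESeq2 called 2 lower, and limma called 0 lower. Some settings ended the calls higher while the estimates remained above 0. By DESeq2, mir-883a was not called (log2 fold change 0.61). Without the filter on low values neither mir-883a (0.53) nor mir-871 (0.27) was called, and likewise with a correction for hairpin GC content (0.42 and 0.16).

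Over the tested entries, the median absolute log2 difference within a pair was 0.275 for Myo-EVs and 0.136 for FFSS-Myo-EVs, on the authors' values. The 5 calls needed both FFSS-Myo-EV libraries, while their estimates kept their sign without either of them. Without the first or without the second, fewer entries were called over all tested entries too, so the loss of calls was not particular to the members. The lone library was then assumed to vary like the Myo-EV pair. The estimate of mir-871 was 0.20 without the first and 0.46 without the second, and that of mir-741 was -0.51 and -0.37. Without the first Myo-EV library, mir-871 (log2 fold change 0.25) and mir-881 (-0.18) were no longer called, and mir-743a (-0.50) was called lower. Without the second Myo-EV library, mir-470 (-0.10) was no longer called and mir-880 (-1.29) was called lower.

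The other 5 members were not called. The estimate for mir-880 was -0.83 with a 95% interval from -1.56 to -0.10 (adjusted p = 0.0763 in edgeR), and it turned to 0.16 without the first Myo-EV library. For mir-463 it was -0.41 (-1.19 to 0.36) and turned to 0.40 without the same library. The intervals of mir-743a (-0.67 to -0.01) and mir-465a (-0.53 to -0.03) lay below 0 before adjustment. The smallest estimate was that of mir-878, -0.08 (-0.46 to 0.30), and its sign turned with the authors' scaling (0.04).

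**Figure D3:**
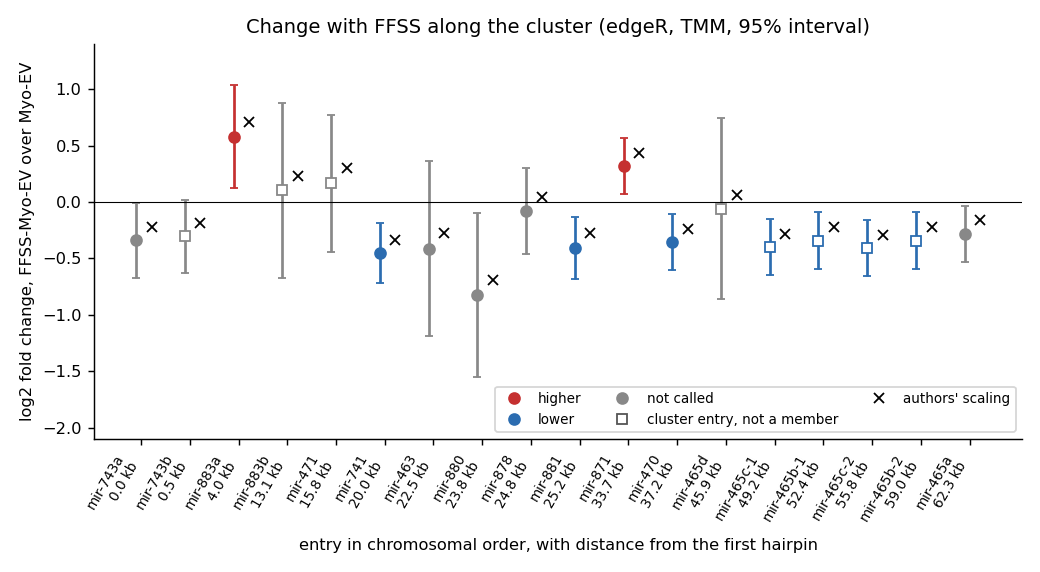
Log2 fold change of FFSS-Myo-EVs over Myo-EVs for the 18 tested cluster entries in chromosomal order, with the distance of each hairpin from the first in kb. Points and bars are edgeR estimates with TMM and their 95% intervals, coloured by call, open squares are entries that are not members, and crosses give the estimate with the authors' scaling. The mir-871 point at 0.32 stands between those of mir-881 at -0.41 and mir-470 at -0.36.

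Hairpins next to each other had estimates of either sign. The hairpin of mir-871 (0.32) lies 8406 bases from mir-881 (-0.41) on one side and 3446 bases from mir-470 (-0.36) on the other. Among the tested entries, the pair closest to each other, mir-878 (-0.08) and mir-881 (-0.41), are 358 bases apart. Of the 8 other cluster entries tested, 4 were called lower and 0 higher, beside 18.4% lower and 12.1% higher over all tested entries. At an unadjusted p under 0.05, 0 of the 8 were higher, and DESeq2 or limma called 0 higher. The 4 were mir-465c-2 (log2 fold change -0.41, adjusted p = 0.00631 in edgeR), mir-465c-1 (-0.40), mir-465b-1 (-0.34) and mir-465b-2 (-0.34). They are not separate observations, because they share mature forms. With the authors' scaling, 0 of them were called in edgeR, beside 11.0% of all tested entries called lower. At an unadjusted p under 0.05 it had 1 of them lower, and their estimates lay between -0.29 and -0.22. With either FFSS-Myo-EV library left out none of the 8 was called, while fewer entries were called over all tested entries too. The estimates of the 4 stayed between -0.50 and -0.22 with 1 EV library left out. Without the first Myo-EV library mir-471 was called higher (log2 fold change 0.82), and without the second its estimate was -0.17.

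Summed over the 10 members, the normalized expression value was 21339.3 and 21640.8 without FFSS and 19519.5 and 18690.5 with FFSS. The means were 21490 ± 213.2 (SD, n = 2) and 19105 ± 586.2 (SD, n = 2), a ratio of 0.889, and both FFSS-Myo-EV libraries were below both Myo-EV libraries. Groups that did not overlap were seen for 6 members on these values, 2 above and 4 below, beside 36.7% above and 23.7% below over all tested entries. On TMM values it was 2 above and 5 below, beside 26.0% and 32.5%.

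The make-up of the cluster within a library does not depend on the scaling between libraries. The share of mir-871 in the members' counts was 11.0% (95% Clopper-Pearson interval 10.6 to 11.4) and 12.9% (12.4 to 13.4) without FFSS. In FFSS-Myo-EVs it was 18.6% (18.1 to 19.2) and 17.8% (17.3 to 18.4). Both shares with FFSS were above both without it, a gain of 6.26 percentage points between the means. The study chose mir-871 on these libraries, so this gain and its ratios to mates below are not independent evidence. The share of mir-881 was 41.6% ± 6.54 (SD, n = 2) without FFSS and 38.5% ± 0.549 (SD, n = 2) with FFSS, and that of mir-741 was 32.2% ± 3.57 (SD, n = 2) and 28.7% ± 0.743 (SD, n = 2).

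**Figure D4:**
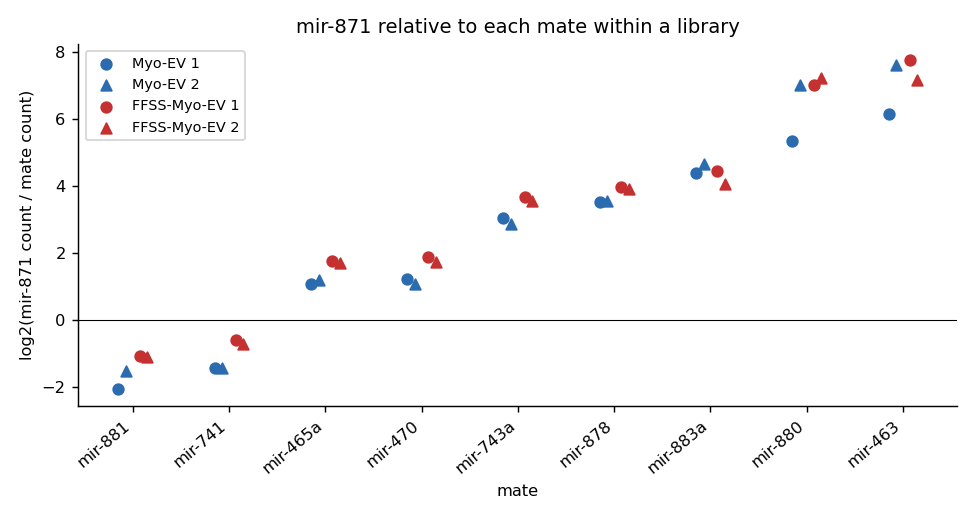
Log2 of the count of mir-871 over the count of each mate in each EV library, with mates ordered by the Myo-EV mean. Blue is Myo-EV and red is FFSS-Myo-EV, circles are first and triangles second libraries. For 7 of the 9 mates both red points stand above both blue points, and for mir-883a and mir-463 they overlap.

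Relative to its mates in the same library, mir-871 was higher in both FFSS-Myo-EV libraries than in both Myo-EV libraries for 7 of 9, beside 56.1% of the 353 other tested entries, so that such a ratio was common outside the cluster too. The log2 ratio of mir-871 to mir-741 was -1.43 and -1.42 without FFSS and -0.60 and -0.71 with FFSS, a difference of 0.77 between the means. To mir-743a, whose 5p form has the same seed, it was 3.06 and 2.85 without FFSS and 3.66 and 3.55 with FFSS, a difference of 0.65. The exceptions were mir-463, whose ratios of 6.15 and 7.61 without FFSS overlapped those of 7.75 and 7.16 with it, and mir-883a, which had risen as well (difference -0.26).

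Ratios between the mates themselves were mixed. The count of mir-883a over that of mir-881 was 0.0113 and 0.0139 without FFSS and 0.0218 and 0.0280 with FFSS. Over its paralog mir-883b, whose 3p form differs from its own by G12U alone (from the 5′ end, the base of miR-883a-3p first), it was 4.62 and 7.15 without FFSS and 7.22 and 8.18 with FFSS, groups that barely stand apart. The 2 most abundant members did not separate from each other, since mir-881 over mir-741 was 1.56 and 1.06 without FFSS and 1.38 and 1.31 with FFSS. The ratio of mir-743a to its paralog mir-743b likewise overlapped, at 0.901 and 0.994 without FFSS and 0.873 and 0.996 with FFSS.

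The entries outside the cluster whose values over the 6 libraries ran most like the mean of the members, by Pearson's r of log2(normalized expression value + 1), were mir-1948 (0.998), let-7j (0.996), mir-3970 (0.996), mir-210 (0.995) and mir-8111 (0.993). All of them share the step from the 2 cell libraries to the 4 EV libraries, and the r values carry no test. Unlike the members, none of which had a count in OB, all 5 were counted in both cells. The closest, mir-1948, was at 274.0 and 208.4 without FFSS, 241.1 and 223.7 with FFSS, 14.9 in OB and 16.3 in BM. The hypoxia miRNA mir-210 was at 2098.0 and 2409.7 without FFSS, 2321.1 and 2752.2 with FFSS, 339.1 in OB and 332.8 in BM.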

How the data were processed

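Small RNA libraries of 4 conditions were analysed from 1 table. The authors grouped the reads by sequence in CLC Genomics Workbench 10.1.1, matched the groups to miRBase and deposited the counts, whole numbers without normalization, for 1006 precursor entries. The labels name the build mm10. The authors also deposited a normalized expression value, a signal made by scaling the counts, which in the file is 1 constant per library times the count. The miRBase release, the mismatches allowed and the treatment of reads with several matches are not given in the sources used here.

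The members and lists were chosen with earlier results of these data known. Changes with FFSS were tested in R 4.3.3 by edgeR 4.0.16 (TMM, quasi-likelihood, Benjamini-Hochberg) on EV counts, keeping 354 entries whose normalized expression value averaged 10 or more over the EV libraries. Alternatives used limma 3.58.1 and DESeq2 1.42.0. The test was checked on simulated data in which every entry had the same spread. That check cannot speak to p-values where miRNAs differ in spread. Ratios to a cell with 0 counts were taken against 3 counts as bounds. Python 3.11.15 and pandas 2.3.3 gave levels, shares and intervals. Positions and sequences came from RefSeq and GENCODE M21, both on GRCm38. Named were all members, up to 4 other cluster entries by level, the 5 entries most like the members, and the testis and marker lists. The values of mir-743b, mir-742, mir-201, mir-547, mir-883b, mir-471 and mir-6977 were added after their values were seen.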

Additional observations from a re-analysis of the deposited data

How the results depend on the processing

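The direction of the 5 called members was the same in each of the alternatives run, but the calls were not. With the main settings 5 members were called, 2 higher and 3 lower. The authors' scaling and limma with a trend (pseudocounts 1 and 10) called 2 members, 2 higher and 0 lower, library totals called 3, 2 higher and 1 lower, and no filter called 3, 0 higher and 3 lower. DESeq2 called 3, 1 higher and 2 lower. Of the alternatives chosen after seeing the data, limma without a trend called 1, 1 higher and 0 lower, the GC correction on the 286 entries with a hairpin called 0 higher and 5 lower, and with the replicate block added it called 0 higher and 6 lower. Leaving out each EV library in turn gave 0 to 5 members called, 0 to 2 higher and 0 to 3 lower. Over all entries, 108 were called, 43 higher and 65 lower. The number was 68 with limma without a trend, and 44 to 132 with a library left out, 19 to 60 higher and 21 to 72 lower. The number lower was 39 with the authors' scaling, 37 with limma with either pseudocount and 27 with limma without a trend. The cause was not tested. The log2 fold change of mir-878 was 0.0433 with the authors' scaling, 0.0444 with limma at pseudocount 1 (with and without a trend) and 0.0425 at pseudocount 10, and -0.158 to 0.0789 with a library left out (0.0789 without the second Myo-EV library). Without one library it ranged from -0.81 to 0.40 for mir-463 and from -1.29 to 0.16 for mir-880. The summed ratio of 0.889 was 0.817 on TMM-scaled counts, and 0.870 to 0.908 with a library left out, and the gain in the share of mir-871 was 5.29 to 7.24 points.

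No source used here says that the replicate numbers pair libraries. With the replicate block, 110 entries and 4 members were called, 1 higher and 3 lower, and mir-871 was not called (log2 fold change 0.32, adjusted p = 0.0514 in edgeR). The deviations of libraries with the same number correlated at 0.21. With 2 libraries a group and counts under 60, mir-880 and mir-463 are the members with the least precision.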
